A study of Mus musculus with 84 samples.

Results

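Hindbrain GLASTneg astrocytes were studied in the chronic stage of experimental autoimmune encephalomyelitis (EAE), a mouse model of multiple sclerosis in which T cells directed against a myelin protein cause inflammation and paralysis. The chronic group (Ech, 6 libraries) and its unimmunized control group (C, 5 libraries) were taken by the condition, region and population in the sample labels, and together they make up 11 of the 66 libraries of the EAE experiment and of the 84 samples of the series. According to the methods of the study, EAE was induced in 10-week-old female C57BL/6 mice (strain C57BL/6J in the labels) with a peptide of myelin oligodendrocyte glycoprotein in complete Freund's adjuvant followed by pertussis toxin, and mice were killed with a limp tail (score 1, E1), with complete paralysis of the hind legs (score 4, E4) or in chronic disease. Controls were mice of the same strain that received no immunization, so effects of the disease and of adjuvant and toxin cannot be told apart. The labels give no clinical score and no day for the chronic mice.

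From every mouse the hindbrain, here cerebellum with brain stem, was dissociated, and cells without CD11B and CD45, with the astrocyte surface protein ACSA-2 (ATP1B2) and without detectable GLAST (SLC1A3) were sorted. C and Ech therefore share strain, region, antibodies and gates, and differ in immunization and disease. The methods state age and sex only for the immunized mice at induction, and not the age at death of either group. Cells of up to 2 mice were combined in a library, and the labels do not say which mice. The p-values given here therefore measure only the spread between libraries, which was estimated from all 66 libraries of the EAE experiment together. Libraries of the same population at E1 and E4 (6 each), of hindbrain GLASTpos astrocytes (4 Ech, 5 C) and of spinal cord GLASTneg astrocytes (6 Ech, 5 C) serve for comparison.

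Astrocytes are glial cells that clear glutamate and potassium around synapses, form the endfeet on vessels and make much of the cholesterol used by neurons. Type I and type II interferons act on them through STAT and IRF transcription factors, which switch on genes of antiviral defence, GTPases that attack intracellular microbes, and the machinery that presents peptides to T cells on MHC molecules. Astrocytes in inflamed tissue also raise acute-phase, complement and intermediate filament genes, a state called reactive.

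Levels are CPM, the share of a library's counts after TMM scaling, and detection in a library means over 3 counts. The control libraries held 1554784 to 2975879 counts and the Ech libraries 2101788 to 3071651, so that 3 counts corresponded to between 0.988 and 1.998 CPM. These limits allow for counting error and nothing else, as reads were not collapsed to molecules. A gene was called differentially expressed (DEG) when the two-sided quasi-likelihood test of edgeR gave a Benjamini-Hochberg adjusted p under 0.05 over all 23324 genes tested and the log2 fold change lay beyond 1 in either direction. Changes are given as log2 fold change ± standard error.

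The labelled population was checked against its markers. *Slc1a2*, the main glutamate transporter of astrocytes, was at 5922, 7634, 6975, 5791 and 6436 CPM in the controls and between 4689.8 and 6686 CPM (median 5965) in Ech, and *Atp1b2*, which encodes the sorted antigen ACSA-2, at 5703 to 8576 CPM in C and 4921 to 7833 CPM in Ech. Transcripts of 20 astrocyte marker genes added up to 37419.5 to 47258 CPM in C and 37439.6 to 39725 CPM in Ech. *Slc1a3*, the gene of GLAST, was present at 1137 to 1771 CPM in C and 944 to 1134 CPM in Ech, below the 5485 to 9085 CPM of control and 4595 to 7716 CPM of Ech libraries from GLASTpos cells. The cells sorted as GLASTneg thus contained the transcript at a lower level and were not devoid of it. The summed CPM of the Bergmann glia genes *Gdf10*, *Gria1*, *Hopx* and *Dao* was 993 to 1272 in C and 886 to 1183 in Ech.

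Transcripts of other cells were measured beside these. For 12 microglia and macrophage genes the sum was 101, 84.2, 61.9, 99.7 and 41.03 CPM in the 5 controls and 291, 287, 342, 257, 327 and 239 CPM in Ech replicates 1 to 6, although CD11B and CD45 positive cells had been gated out. Markers of infiltrating myeloid cells (12 genes) reached 140.3 CPM in Ech 1 and 164 CPM in Ech 3, against 41.02 to 61.3 CPM in the other Ech libraries and 1.12 to 17.9 CPM in C. For 14 T cell genes the sum was 46.9 CPM in Ech 1 and 149 CPM in Ech 3, whereas the other Ech libraries (9.696 to 21.6 CPM) overlapped with the controls (6.37 to 17.7 CPM). Ech 1 and Ech 3 thus carried the most transcripts of infiltrating myeloid and T cells. For the microglia and macrophage genes, Ech 5 (327 CPM) was above Ech 1 (291 CPM). In the controls, 8 of the 14 T cell genes (*Cd3d*, *Cd8a*, *Cd2*, *Trbc1*, *Trbc2*, *Ms4a4b*, *Gzma* and *Nkg7*) and 3 of the 12 infiltrating myeloid genes (*Ly6c2*, *Camp* and *Clec7a*) were at 0 in every library, and in Ech none was at 0 in every library.

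Further lists moved in either direction. Oligodendrocyte genes summed to 1470.4 to 5103 CPM in C and 2423 to 4995 CPM in Ech, genes of oligodendrocyte precursors to 17.98 to 24.7 and 42.999 to 79.4 CPM without overlap, and neuronal genes to 111 to 209 and 172 to 308 CPM. Endothelial genes summed to 0 to 7.27 CPM in C and 0 to 8.56 CPM in Ech, with *Cldn5* at 0 throughout. Genes of B cells summed to 0.9202 to 9.55 CPM in C (median 3.33) and 3.76 to 14.1 CPM in Ech (median 9.04), although *Cd79b* and *Ms4a1* were at 0 in all 11 libraries, and erythroid genes summed to 2.77 to 40.9 CPM in C and 0.659 to 17.8 CPM in Ech. No member of the oligodendrocyte, precursor, neuron, endothelial, T cell, B cell or erythroid lists was a DEG.

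**Figure D1:**
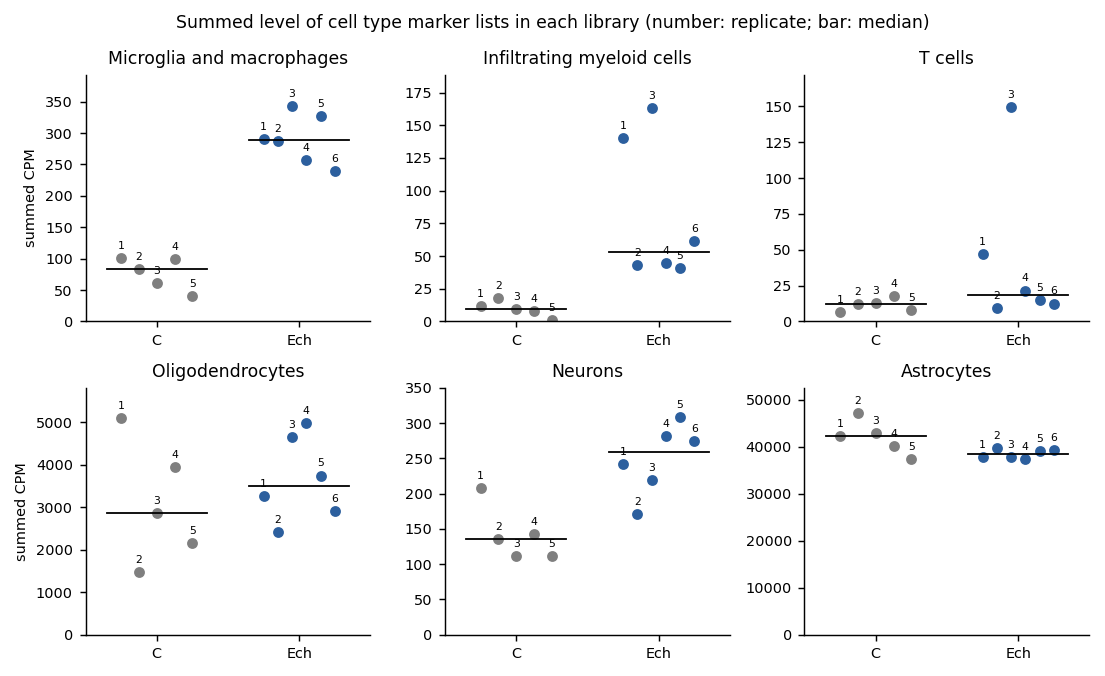
Summed CPM (linear axis) of 6 cell type marker lists in each library of C (grey) and Ech (blue), with the replicate number beside each point and a bar at the group median. Microglia and macrophage genes lie higher in all Ech libraries, infiltrating myeloid and T cell genes are highest in Ech 1 and 3, and astrocyte markers overlap between the groups.

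Which genes differed between chronic EAE and control was asked first. The chronic stage was marked by a rise of interferon-type genes: 44 genes were higher in Ech (0.189% of the genes tested) and 1 was lower (0.00429%), 45 in all (0.193%). The number of lower genes depended on the fit, and with only the 11 libraries compared it was 22, beside 151 higher. At an unadjusted p under 0.05 in the main fit, 1047 genes were higher and 736 lower. Of the 44, 25 belonged to 5 lists of interferon and MHC genes with 89 members in all, namely GTPases of the interferon-γ response, interferon-stimulated genes, interferon signalling and both MHC pathways. The other DEGs included the complement component *C4b*, the acute-phase protease inhibitor *Serpina3n* and the filament gene *Gfap*. For 38 of the 44 genes every Ech library lay above every control library, a pattern seen for 190 genes of all those tested (0.815%), whereas 104 genes (0.446%) lay lower in every Ech library. The median log2 fold change over all genes was 0. In bulk RNA a lower level of a transcript per cell and a smaller share of the cells that make it cannot be told apart, and the same holds for higher levels.

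The number of DEGs depended on single libraries, including each control. It dropped to 16 without Ech 3 and to 27 without Ech 1, to 18, 17, 23, 24 and 20 without controls 1 to 5 in turn, and stayed between 42 and 55 without any of the other Ech libraries. Without Ech 1 and Ech 3 together, a choice made after seeing the data, 11 genes were called (*H2-D1*, *C4b*, *Bst2*, *Ddx60*, *H2-Aa*, *Irf9*, *Iigp1*, *Oasl2*, *Nlrc5*, *Serpina3n* and *Meg3*). The 14 genes called whichever single library was left out were *B2m*, *Bst2*, *C4b*, *Ddx60*, *Gfap*, *Gm4951*, *H2-Aa*, *H2-D1*, *Ifi47*, *Iigp1*, *Irf9*, *Nlrc5*, *Oasl2* and *Serpina3n*. Fits without a single library kept the trend of spread estimated with that library included. The fit without Ech 1 and Ech 3 together estimated the trend anew, so its count is not fully comparable. Antisense genes overlap 14 of the 44 and genes of the same strand 9, and as the sources used here do not say how strand was treated in counting, reads of such pairs cannot be told apart. All 45 DEGs had the same sign in each of 20 other settings tried. Among the 44 higher genes, 41 (93.2%) had their highest Ech value in Ech 1 or Ech 3, compared with 31.3% of all 10887 genes of at least 5 CPM.

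**Figure D2:**
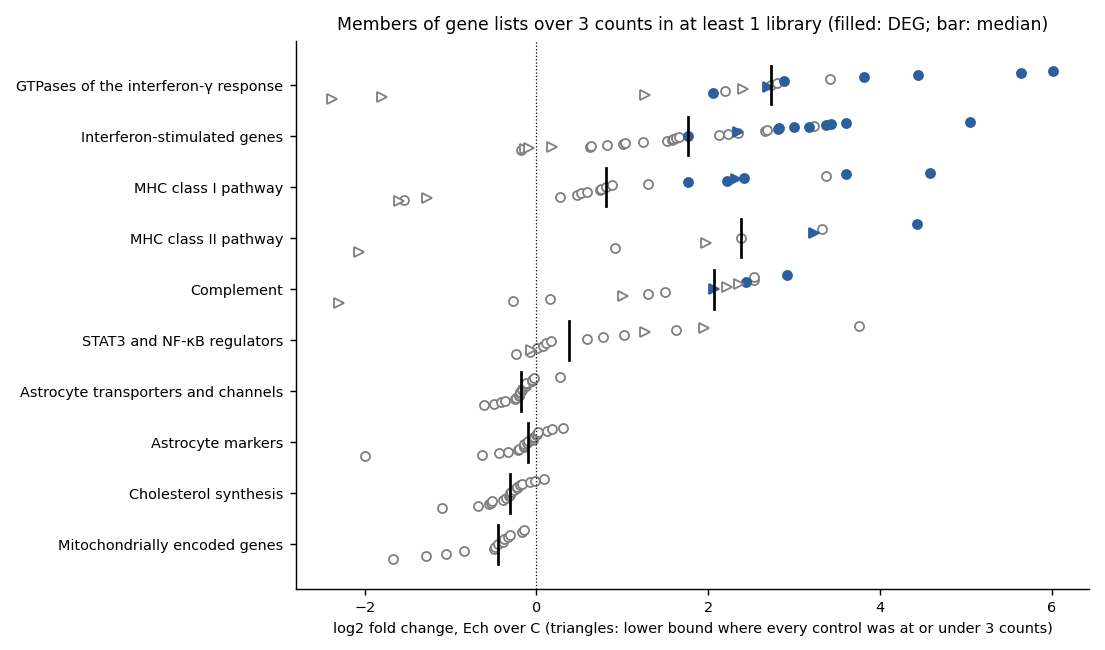
Log2 fold change of Ech over C (x axis) for members of 10 gene lists with more than 3 counts in at least 1 library, where filled symbols are DEGs, triangles are lower bounds for genes at or under 3 counts in every control, and bars are medians. The interferon, MHC and complement lists lie to the right of 0, with medians between 0.81 and 2.73, while astrocyte, cholesterol and mitochondrial lists have medians between -0.44 and -0.10.

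GTPases induced by interferon-γ were a first group among the higher genes. This family, immunity-related GTPases (IRG) and guanylate-binding proteins (GBP), assembles on vacuoles that hold intracellular microbes. Of 16 members tested, 7 were higher in Ech (*Iigp1*, *Gm4951*, *Ifi47*, *Igtp*, *Gbp2*, *Gbp3* and *Gbp7*) and none was lower, and the same 7 did not overlap between the groups. Over all genes tested, 0.189% were called higher and 0.815% lay higher in every Ech library. The median log2 fold change of the list was 3.62, or 2.73 with the members that were undetected in controls set to their lower bound.

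*Iigp1* (ENSMUSG00000054072; chromosome 18, 60376027 to 60392634, GRCm38 here and below) was at 1.27, 0, 2.66, 1.73 and 2.25 CPM in the controls and between 38.7 and 197 CPM (median 62.9) in Ech, a log2 fold change of 6.02 ± 0.85, adjusted p = 1.09e-05. It encodes an IRG protein that disrupts parasite vacuoles. The Ech libraries formed a high pair, Ech 1 with 197 CPM and Ech 3 with 196 CPM, and 4 libraries of 38.7 to 63.7 CPM that were still well above the highest control. *Igtp* (ENSMUSG00000078853; chromosome 11, 58199556 to 58207591), a regulator of the effector IRG proteins, was measured at 12.7, 10.6, 9.99, 17.7 and 15.7 CPM in C and between 39.9 and 222 CPM (median 50.5) in Ech (2.88 ± 0.60, adjusted p = 0.0124). It showed the same split, with 187 and 222 CPM in Ech 1 and Ech 3, and its call was lost in 4 of 11 fits that left out a library. *Igtp* overlaps *Irgm2* on the same strand, so reads there could be shared.

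*Ifi47* (ENSMUSG00000078920; chromosome 11, 49076587 to 49096974), another IRG gene, had no count in any control library and 3.75 to 37.6 CPM in Ech, at least 6.49-fold higher, which sets the mean of Ech, here and for the genes below, against 3 counts in the shallowest control library (adjusted p = 0.000629). *Gm4951*, a predicted IRG gene, was at 0 in 4 controls, at 2.25 CPM in control 5 and between 2.28 and 41.4 CPM (median 20.5) in Ech (5.65 ± 1.06, adjusted p = 0.00248). Its lowest Ech value (2.28 CPM, Ech 5) was only just above control 5.

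Among the guanylate-binding proteins, *Gbp3* was at 0, 1.38, 1.33, 4.85 and 0.562 CPM in C and between 10.3 and 48.9 CPM (median 18.3) in Ech (3.82 ± 0.90, adjusted p = 0.0353). *Gbp2* was at 0.8499, 0.9201, 0, 0 and 3.37 CPM in C and between 4.94 and 55.3 CPM (median 12.2) in Ech (4.45 ± 0.99, adjusted p = 0.0219). *Gbp7* was better expressed in controls, at 15.3, 9.201, 13.3, 12.5 and 12.9 CPM, and lay between 25.3 and 110.2 CPM (median 39.97) in Ech (2.05 ± 0.48, adjusted p = 0.0371). For all 3 genes the controls ended below the lowest Ech library, the highest Ech library was Ech 3, and the call depended on single libraries. The *Gbp* genes lie side by side on chromosome 3 and are similar in sequence, so the split of reads among them is uncertain.

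Interferon-stimulated genes of antiviral defence formed a second group. Of 31 tested, 10 were DEGs, all higher (*Bst2*, *Oasl2*, *Irf9*, *Rsad2*, *Rtp4*, *Ifit1*, *Irf7*, *Usp18*, *Ifi44* and *Zbp1*), 19 lay higher in every Ech library, and 30 had a positive log2 fold change, with a median of 2.34 (1.77 with lower bounds). Among all 23324 genes tested, 0.189% were called higher, 0.815% lay higher in every Ech library and 11550 genes had a positive log2 fold change. Summed over the list, CPM was 247 to 319 in C and 873 to 1915 in Ech, where Ech 1 (1581) and Ech 3 (1915) stood above the other 4 libraries (873 to 1002).

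*Bst2* (ENSMUSG00000046718; chromosome 8, 71534255 to 71537456) encodes tetherin, which holds budding virus at the cell surface. It was at 32.7, 19.3, 29.97, 34.3 and 31.5 CPM in the controls and between 205 and 477 CPM (median 251) in Ech (3.37 ± 0.53, adjusted p = 0.000133), so that the lowest Ech library stood far above the highest control. *Ddx60* (ENSMUSG00000037921; chromosome 8, 61928087 to 62038244), a helicase linked to RNA sensing that was not on the list, was at 2.12, 1.38, 0, 3.81 and 1.69 CPM in C and between 19.4 and 50.5 CPM (median 31.5) in Ech (4.09 ± 0.67, adjusted p = 0.000234). Both genes were called in every setting tried. *Oasl2* (ENSMUSG00000029561; chromosome 5, 114896936 to 114912234), an antiviral protein related to the oligoadenylate synthetases, was at 2.55, 1.38, 4.66, 5.19 and 2.25 CPM in C and between 20.2 and 67.4 CPM (median 35.3) in Ech (3.61 ± 0.63, adjusted p = 0.000629). *Irf9* (ENSMUSG00000002325; chromosome 14, 55603571 to 55610030), the DNA-binding subunit of the complex ISGF3, was at 15.7, 22.1, 29.97, 32.9 and 39.3 CPM in C and between 70.6 and 139 CPM (median 88.9) in Ech (1.77 ± 0.31, adjusted p = 0.00068). *Irf9* was the single DEG among 15 interferon signalling genes, of which 4 lay higher in every Ech library, as did 0.815% of all genes.

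Other interferon signalling genes were less clear. *Stat2*, another subunit of ISGF3, was at 15.7 ± 2.35 CPM (SD, n = 5) in C and 45.002 ± 13.4 CPM (SD, n = 6) in Ech (1.52 ± 0.38, adjusted p = 0.0679), and *Irf1* at 29.2 ± 6.74 and 98.9 ± 57.001 CPM (1.76 ± 0.45, adjusted p = 0.0878). Neither passed the test in this comparison, and both were chosen because they passed it between E4 and Ech, described further on. *Irf7*, the amplifier of type I interferon production, did pass it, at 0.8499, 0.4601, 0, 1.73 and 1.69 CPM in C and between 4.22 and 19.2 CPM (median 10.9) in Ech (3.43 ± 0.82, adjusted p = 0.0458), and its call held in 2 of 11 fits that left out a library. *Irf7* overlaps the antisense gene *Phrf1*.

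*Rsad2* (ENSMUSG00000020641; chromosome 12, 26442746 to 26456452), which encodes viperin, was at 13.6, 14.7, 25.3, 13.2 and 10.1 CPM in C and between 54.3 and 206 CPM (median 88.02) in Ech (2.81 ± 0.57, adjusted p = 0.0083). *Rtp4* was at 5.95, 6.44, 5.33, 4.501 and 6.74 CPM and between 19.1 and 74.96 CPM (median 33.9) (2.82 ± 0.60, adjusted p = 0.0129), and *Ifit1*, which binds foreign RNA ends, at 0, 3.22, 0.666, 0.693 and 4.496 CPM and between 6.84 and 29.5 CPM (median 14.9) (3.17 ± 0.67, adjusted p = 0.0124). In each of these the groups were separated. *Usp18*, which removes ISG15 and damps interferon receptor signalling, was at 0, 0, 3.33, 3.12 and 3.37 CPM in C and between 5.63 and 31.9 CPM (median 12.3) in Ech (3.001 ± 0.72, adjusted p = 0.0483). *Zbp1*, a sensor of Z-form nucleic acid, was detected in no control and in 5 Ech libraries, at between 0.422 and 29.5 CPM (median 8.12) over all 6, at least 5.09-fold above the floor (adjusted p = 0.0209), and *Ifi44* was at 0, 0, 0, 1.39 and 0 CPM and between 0 and 26.2 CPM (median 12.2) (5.05 ± 1.14, adjusted p = 0.0246). These last 2 overlapped between the groups, since 1 Ech library each was at or below the highest control.

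Interferon-stimulated genes outside the list that passed the test, named here after their values were seen, were *Ifi27* (70.5, 75.5, 119.9, 91.4 and 54.5 CPM in C, 150.4 to 285 CPM in Ech, 1.28 ± 0.27, adjusted p = 0.0133), *Ifitm3* (1.27, 1.38, 4.66, 4.501 and 0 CPM, 6.32 to 48.5 CPM, 3.17 ± 0.74, adjusted p = 0.0353), whose protein blocks virus entry, and *Ly6e* (2.97, 2.76, 3.33, 0.693 and 4.496 CPM, 12.2 to 30.8 CPM, 3.03 ± 0.69, adjusted p = 0.0272). All 3 were higher in every Ech library than in any control. *Slfn8*, a member of the interferon-inducible Schlafen family, was not detected in controls and reached 0.843 to 17.4 CPM in Ech, at least 3.14-fold above the floor (adjusted p = 0.044), with Ech 2 inside the range of the controls.

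**Figure D3:**
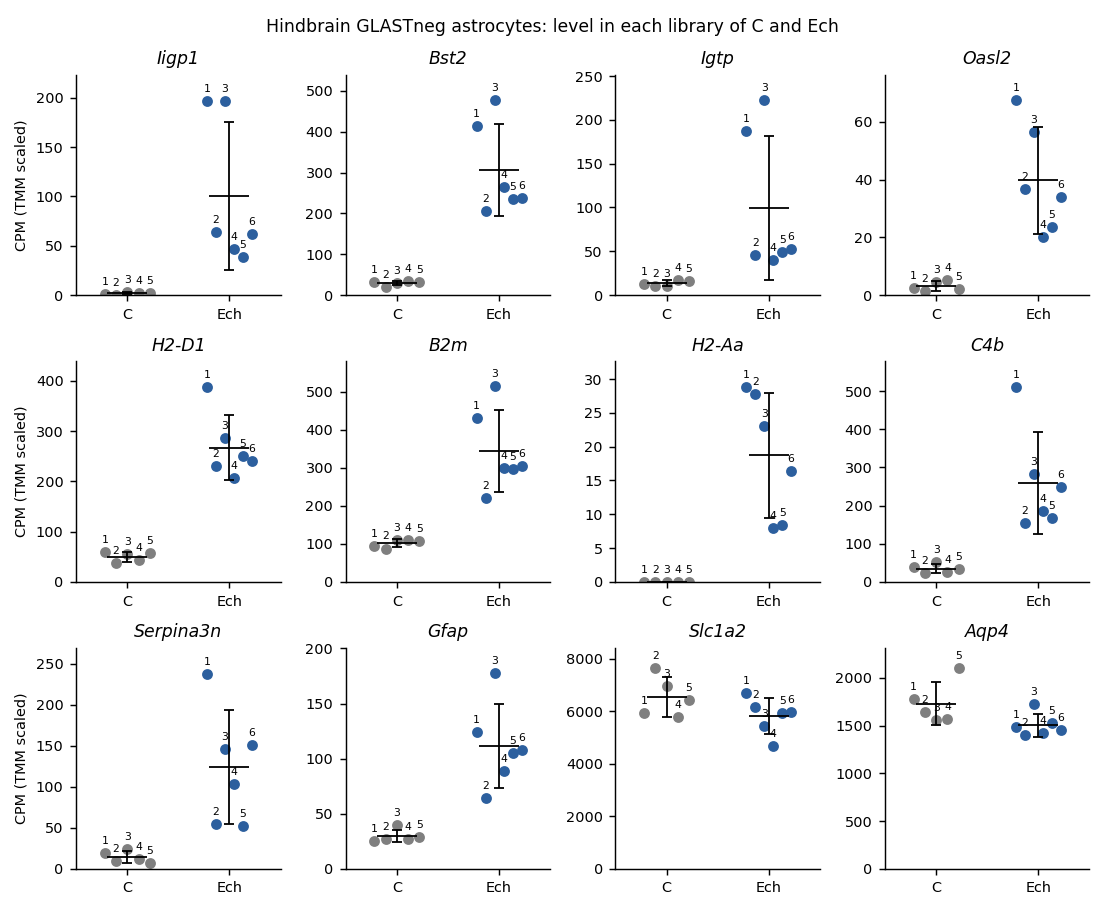
CPM (linear axes from 0) of 12 genes in each library of C (grey, 5) and Ech (blue, 6), with the replicate number beside each point, a horizontal bar at the mean and error bars of 1 SD. Ech 1 and 3 are the highest libraries for *Iigp1*, *Bst2*, *Igtp*, *Oasl2* and *B2m*, the groups are separated for every gene from *Iigp1* to *Gfap*, and they overlap for *Slc1a2* and *Aqp4*.

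The promoters of these genes were inspected because members moved together. The interferon-stimulated response element, which ISGF3 and other IRF proteins bind, contains a pair of GAAA units, so GAAA, any 2 bases and again GAAA were searched on both strands from 250 bases before to 50 bases after each start in RefSeq promoters (GRCm38.p6). Of the 44 higher genes, 31 had 36 promoters in that set, and 13 of the promoters (36.1%) contained the letters, compared with 3.23% of the 17668 promoters of genes tested and 3.44% of all 32851. TTC, any 3 bases and GAA, the form bound by STAT dimers and itself symmetric between strands, was found in 6 of the 36 (16.7%), in 7.15% of the promoters of genes tested and in 8.3% of all, and it overlapped a match of the GAAA pair in 2. A match describes the letters of a window and not a bound site.

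The 250 bases before the start are printed for the 4 DEGs with the smallest adjusted p among those with a match of the GAAA pair. They run from 5′ to 3′ on the strand of the gene, with the GAAA pair, or its reverse complement, in capitals. In *Bst2* (chr8:71537473-71537722, minus strand) 2 overlapping matches begin at -130 and -124 from the start, and in *Ddx60* (chr8:61927837-61928086, plus strand) 2 separate ones at -53 and -19. *B2m* (chr2:122147437-122147686, plus strand) has 1 at -139 and *Rsad2* (chr12:26456453-26456702, minus strand) 1 at -120.
Bst2: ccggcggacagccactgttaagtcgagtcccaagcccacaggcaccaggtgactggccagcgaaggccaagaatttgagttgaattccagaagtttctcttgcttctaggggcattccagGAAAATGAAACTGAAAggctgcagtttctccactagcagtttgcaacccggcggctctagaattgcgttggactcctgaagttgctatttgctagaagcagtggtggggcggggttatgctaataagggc
Ddx60: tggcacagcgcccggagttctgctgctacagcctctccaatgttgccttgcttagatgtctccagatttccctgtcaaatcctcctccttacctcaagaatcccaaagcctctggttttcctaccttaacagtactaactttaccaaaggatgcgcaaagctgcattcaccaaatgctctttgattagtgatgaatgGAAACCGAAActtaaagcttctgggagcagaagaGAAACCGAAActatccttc
B2m: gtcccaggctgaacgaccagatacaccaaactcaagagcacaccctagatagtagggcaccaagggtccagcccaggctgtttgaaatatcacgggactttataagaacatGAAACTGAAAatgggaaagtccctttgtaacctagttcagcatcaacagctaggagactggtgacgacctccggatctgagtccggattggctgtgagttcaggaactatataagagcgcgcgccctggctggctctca
Rsad2: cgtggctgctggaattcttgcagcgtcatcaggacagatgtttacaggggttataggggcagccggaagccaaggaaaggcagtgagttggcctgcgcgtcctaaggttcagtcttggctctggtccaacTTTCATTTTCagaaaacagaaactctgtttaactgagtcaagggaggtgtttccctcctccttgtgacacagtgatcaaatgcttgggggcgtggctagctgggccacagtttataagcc

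Genes of the MHC class I pathway, which shows peptides from inside the cell to CD8 T cells, rose in part. Of 20 tested, 6 were higher (*H2-D1*, *B2m*, *Tap1*, *Psmb8*, *Nlrc5* and *H2-Q7*), 9 were higher in every Ech library, and the list median was 1.09 (0.81 with lower bounds). Of all genes tested, 0.189% were called higher and 0.815% were higher in every Ech library. The 6 cover several steps, namely heavy chains, the light chain, peptide transport, the immunoproteasome and the transcriptional activator of the pathway.

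*H2-D1* (ENSMUSG00000073411; chromosome 17, 35262730 to 35267499), a classical class I heavy chain, was at 58.6, 36.8, 55.9, 42.6 and 56.8 CPM in the controls and between 206 and 389 CPM (median 246) in Ech (2.42 ± 0.40, adjusted p = 0.000275). *B2m* (ENSMUSG00000060802; chromosome 2, 122147686 to 122153083), whose product is the light chain of all class I molecules, was at 94.3, 87.9, 109, 111 and 107 CPM in C and between 220.1 and 516 CPM (median 302) in Ech (1.76 ± 0.34, adjusted p = 0.00417). Neither overlapped, the lowest Ech library being Ech 4 for *H2-D1* and Ech 2 for *B2m*, the latter gene overlapped by the antisense gene *Patl2*. *Nlrc5*, the activator of class I genes, was at or under the floor in all controls and at 1.899 to 18.5 CPM in Ech, at least 5.02-fold above the floor (adjusted p = 0.000533). *Tap1*, a subunit of the peptide transporter, was at 12.3, 7.82, 6.66, 10.7 and 26.98 CPM in C and between 26.3 and 117 CPM (median 42.2) in Ech (2.22 ± 0.47, adjusted p = 0.014), and control 5 overlapped with the lowest Ech library. *Psmb8*, an immunoproteasome subunit, was at 1.27, 0.9201, 5.99, 1.04 and 0 CPM and between 7.59 and 41.1 CPM (median 14.1) (3.61 ± 0.77, adjusted p = 0.013), without overlap.

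*H2-Q7*, a nonclassical class I gene, was at 0, 0.4601, 3.33, 0 and 0 CPM in C and between 8.74 and 28.8 CPM (median 13.3) in Ech (4.59 ± 1.11, adjusted p = 0.0483), and its call held in 3 of 11 fits that left out a library. The more abundant heavy chain *H2-K1* was at 338 ± 42.4 CPM (SD, n = 5) in C and 833 ± 273 CPM (SD, n = 6) in Ech, and narrowly missed the threshold (1.30 ± 0.32, adjusted p = 0.053). Class I heavy chain genes are close copies of each other, so the division of reads among *H2-D1*, *H2-K1* and *H2-Q7* is uncertain. Counting both MHC pathways and complement, 8 of the 44 higher genes lay within 1.26 Mb of chromosome 17 (34187553 to 35443773), where the order is *Tap1*, *Psmb8*, *H2-Ab1*, *H2-Aa*, *C4b*, *C4a*, *H2-D1* and *H2-Q7*, and 0.839% of the 953 tested genes of that chromosome were called higher.

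MHC class II genes, which present extracellular peptides to CD4 T cells, were nearly absent from C. Of 10 tested, 2 were higher (*H2-Aa* and *H2-Ab1*, the α and β chains of the I-A molecule) and 4 lay higher in every Ech library. The shares over all genes tested were 0.189% and 0.815%. *H2-Aa* (ENSMUSG00000036594; chromosome 17, 34282744 to 34287823) had no count in any of the 5 controls, and 28.8, 27.8, 23.02, 7.98, 8.36 and 16.5 CPM in Ech 1 to 6, at least 9.38-fold above the floor (adjusted p = 0.00211). *H2-Ab1* (ENSMUSG00000073421; chromosome 17, 34257689 to 34269419) was at 0.8499, 0, 0, 1.73 and 1.12 CPM in C and between 10.9 and 33.9 CPM (median 14.4) in Ech (4.43 ± 0.99, adjusted p = 0.0228). Every Ech library held both transcripts, with Ech 1, 2 and 3 above the other 3 for *H2-Aa*. The summed CPM of the list was 1.12 to 7.62 in C and 36.8 to 115 in Ech. Microglia and macrophages also make class II molecules, and their 12 markers were likewise higher in Ech, at 41.03 to 101 CPM in sum in C and 239 to 342 CPM in Ech. Within Ech the 2 sums did not rank alike. Ech 3 was highest for both, whereas Ech 5 had 327 CPM of these markers and the lowest class II sum (36.8 CPM). The part of these cells in the result was not tested.

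Complement and reactive astrocyte genes formed a further group. *C4b* (ENSMUSG00000073418; chromosome 17, 34728380 to 34743882), which feeds the classical pathway of complement, was at 39.1, 22.5, 51.3, 26.3 and 32.6 CPM in the controls and between 154 and 511 CPM (median 218) in Ech (2.92 ± 0.40, adjusted p = 7.20e-06). *Serpina3n* (ENSMUSG00000021091; chromosome 12, 104406729 to 104414329), a secreted inhibitor of serine proteases, was at 19.5, 9.66, 23.98, 12.1 and 6.74 CPM in C and between 52.03 and 237 CPM (median 125) in Ech (3.12 ± 0.51, adjusted p = 0.000262). *Gfap* (ENSMUSG00000020932; chromosome 11, 102887336 to 102900912), the classical filament protein of reactive astrocytes, was at 25.1, 26.7, 39.3, 27.4 and 29.2 CPM in C and between 64.5 and 178 CPM (median 106) in Ech (1.92 ± 0.36, adjusted p = 0.00211). All 3 were higher in every Ech library than in any control and were called whichever single library was left out, and *C4b* and *Serpina3n* also without Ech 1 and 3 together. *Gfap* then had an adjusted p of 0.0925, and it overlaps the antisense gene *Gm26668*.

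Of 16 complement genes, 3 were higher (*C4b*, *C4a* and *C1qa*) and 7 lay higher without overlap, with a median of 2.48. The shares over all genes tested were 0.189% and 0.815%. *C4a*, a near copy of *C4b* on the same chromosome whose reads could be shared with it, was under the floor in controls and at 1.65 to 21.6 CPM in Ech, at least 4.197-fold higher (adjusted p = 0.0353). *C1qa*, a subunit of C1q made mainly by microglia, was at 27.6, 18.4, 15.3, 31.5 and 7.87 CPM in C and between 85.95 and 139 CPM (median 105) in Ech (2.44 ± 0.57, adjusted p = 0.0353). It was high in all 6 Ech libraries, Ech 3 and Ech 5 being highest, as were the summed microglia markers, to which it belongs. *Serping1*, the inhibitor of C1, was at or under the floor in controls and at 4.04 to 22.6 CPM in Ech, and did not pass the test (adjusted p = 0.0651).

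On published lists of reactive astrocyte genes, 3 of 13 pan-reactive genes (*Serpina3n*, *Gfap* and *Cxcl10*) and 4 of 11 LPS-type genes, also called A1 (*Iigp1*, *Psmb8*, *H2-D1* and *Gbp2*), were higher. None of 11 genes of the ischaemia (MCAO) type, also called A2, was called. Over all genes tested, 0.189% were called higher. Of the 11 MCAO-type genes, 8 were at or under 3 counts in every control library, which left little to test. A positive log2 fold change was seen for 10 of them, with a list median of 3.23 that became -1.315 with lower bounds. *Cxcl10*, a chemokine that attracts T cells, had no count in controls and 3.29 to 26.6 CPM in Ech, at least 5.22-fold above the floor (adjusted p = 0.0353). *Lcn2*, another pan-reactive gene, likewise had no count in controls, but among the Ech libraries it was over the floor in Ech 1 (21.6 CPM), Ech 3 (5.65 CPM) and Ech 6 (1.98 CPM) only and did not pass the test (adjusted p = 0.118). A core list of EAE-raised genes has 93 members, of which 29 were higher here. It was chosen by the authors on spinal cord libraries of this experiment and is not independent evidence of direction. Of the 30 genes of the matching lowered list, none was called and 13 had a positive fold change.

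The remaining higher genes were of mixed function. *Lgals3bp*, a secreted glycoprotein that binds galectins, was at 63.7, 44.6, 79.3, 59.6 and 52.3 CPM in C and between 158 and 296 CPM (median 192) in Ech (1.77 ± 0.39, adjusted p = 0.0219). *Junb*, a subunit of the transcription factor AP-1 and the one DEG of 15 immediate early genes, was at 8.499, 3.22, 8.66, 4.85 and 1.12 CPM in C and between 10.5 and 64.6 CPM (median 23.2) in Ech (2.41 ± 0.51, adjusted p = 0.0129). *Map1b*, a microtubule protein of growing axons, was at 59.9, 35.4, 46.6, 48.8 and 37.7 CPM and between 63.2 and 138 CPM (median 119) (1.30 ± 0.29, adjusted p = 0.0222). In these 3 genes no Ech library was as low as a control. *Meg3*, a noncoding RNA abundant in neurons, was at 171, 83.3, 79.3, 103 and 90.5 CPM in C and between 186 and 517 CPM (median 252) in Ech (1.59 ± 0.36, adjusted p = 0.0226), and unlike 41 of the 44 higher genes it was highest in Ech 4 (517 CPM) and Ech 5 (487 CPM). The 6 neuronal markers moved alongside, at 111 to 209 CPM in sum in C and 172 to 308 CPM in Ech, and their part in the rise of *Meg3* and *Map1b* was not tested.

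The DEGs *Clec7a*, *Cd300lf* and *Hcar2* are known mainly from leukocytes. *Clec7a*, the fungal receptor dectin-1 of myeloid cells, had no count in any control and 0 to 19.8 CPM in Ech, at least 3.499-fold above the floor on the mean (adjusted p = 0.0159), with Ech 5 at 0. *Cd300lf*, an inhibitory myeloid receptor, was at 0, 0, 0, 3.12 and 0 CPM in C and 2.28 to 69.05 CPM in Ech (4.63 ± 1.04, adjusted p = 0.0229), with Ech 3 the highest. *Hcar2*, the niacin and ketone body receptor of myeloid cells, had no count in controls, 17.1 CPM in Ech 1, 35.1 CPM in Ech 3 and at most 5.63 CPM elsewhere, at least 5.28-fold above the floor (adjusted p = 0.021). *Cela1*, a pancreas-type elastase and not part of this group, was at 2.97, 0, 3.996, 1.73 and 2.25 CPM in C and between 4.22 and 44.01 CPM (median 12.97) in Ech (3.09 ± 0.70, adjusted p = 0.0234). For *Clec7a*, *Cd300lf* and *Hcar2* the highest library was Ech 3, which also held the largest sum of infiltrating myeloid markers, a list to which *Clec7a* belongs. No call of these genes or of *Cela1* held without Ech 1 and 3, a fit in which only 11 of the 45 DEGs were called. The single lower gene, *Gm12338*, was at 243, 1.38, 4.66, 0.346 and 2.81 CPM in C and at most 0.988 CPM in Ech (-7.17 ± 1.49, adjusted p = 0.0124), a difference that came from control 1, and it was not called without control 1 or without Ech 3.

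Genes of astrocyte function did not pass the test. None of 20 transporter and channel genes was called (median log2 fold change -0.18). Of them 1 was positive, against 11550 of all 23324 genes tested. The summed CPM of the 20 was nonetheless lower in every Ech library (67378 to 82812) than in any control (84313 to 93921). With CPM by plain library totals these sums overlapped, the highest Ech library being at 81417.7 and the lowest control at 81079.2. Of the 20, 3 lay lower in every Ech library, as did 0.446% of all genes. *Gja1*, which encodes the gap junction protein connexin 43, was at 2433, 1821, 2244, 1750.0 and 2147 CPM in C and between 1088 and 1560.4 CPM (median 1348) in Ech (-0.61 ± 0.38, adjusted p = 0.754, 95% interval -1.37 to 0.15). *Slc1a3* was at 1771, 1219.6, 1407, 1137 and 1331 CPM in C and between 944 and 1134 CPM (median 1021) in Ech (-0.41 ± 0.26, adjusted p = 0.749). Both had separated groups, as had the endfoot potassium channel gene *Kcnj10*, with differences under 1 on the log2 scale that were not called. *Slc1a2* had a log2 fold change of -0.17 ± 0.26 (interval -0.69 to 0.35), the water channel gene *Aqp4* of -0.20 ± 0.31 (interval -0.81 to 0.41), *Aldh1l1* of -0.01 ± 0.31 (interval -0.62 to 0.60) and *Fgfr3*, a growth factor receptor, of 0.13 ± 0.28 (interval -0.43 to 0.68). The intervals of *Slc1a2*, *Aqp4*, *Aldh1l1* and *Fgfr3* all contain 0 and exclude a change of 1 in either direction.

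Genes of cholesterol synthesis and of the mitochondrial genome had mostly negative values without a call. All but 1 of 19 cholesterol synthesis genes had a negative log2 fold change (median -0.31), but none passed the test and none was separated between the groups. *Msmo1*, the best expressed of them with *Hmgcs1*, was at 1558, 1741, 1447, 1035 and 1090.4 CPM in C and between 863 and 1261 CPM (median 1053) in Ech (-0.35 ± 0.20, adjusted p = 0.673), and *Hmgcs1*, an early enzyme of the pathway, at 581, 564, 419, 433 and 406 CPM and between 276 and 548 CPM (median 343) (-0.39 ± 0.21, adjusted p = 0.677). The 13 mitochondrially encoded genes were all negative (median -0.44), again with overlap between the groups in each. Of all 23324 genes tested, 11550 had a positive log2 fold change. None of 13 vascular barrier genes was a DEG either, but their summed CPM was lower in every Ech library (3562 to 4390.0) than in any control (4836 to 5891), and 3 of them (*Kcnj10*, *Vegfa* and *Gja1*) lay lower without overlap, as did 0.446% of all genes. None of 16 glycolysis genes, 17 synapse factors, 19 regional transcription factors or 14 lysosomal genes was a DEG.

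Further groups stayed under the threshold with positive values. For 27 cell cycle genes none was called, and the proliferation marker *Mki67* was at 0, 0, 0, 4.16 and 0 CPM in C and between 0 and 4.22 CPM (median 1.12) in Ech (0.79 ± 1.22, adjusted p = 1), with overlap between the groups and values near the floor. *Stat3*, a transcription factor of reactive gliosis, was at 149, 133, 166, 117 and 149 CPM in C and between 148 and 328 CPM (median 253) in Ech (0.77 ± 0.22, adjusted p = 0.244). The NF-κB inhibitor *Nfkbia* was at 343, 264, 322, 267 and 286 CPM in C and between 302 and 565 CPM (median 462) in Ech (0.59 ± 0.32, adjusted p = 0.662). For both genes 1 or more Ech libraries fell inside the range of the controls. *Gpr17*, a receptor of committed oligodendrocyte precursors, was at 11.05, 3.68, 5.33, 8.66 and 7.31 CPM in C and between 25.3 and 46.4 CPM (median 31.1) in Ech, separated between the groups but not called (2.16 ± 0.63, adjusted p = 0.236).

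How the chronic stage related to the peak of disease was asked next. Between E4 and Ech no gene was higher in Ech (0%) and 20 were lower (0.0857% of the genes tested), and most of those were interferon-γ, antigen presentation and interferon signalling genes. They included *Igtp*, *Cd274*, *Serping1*, *Tap1*, *Iigp1*, *Irgm2*, *Ifi47*, *Gm17334*, *Psmb8*, *Gbp7*, *Irf1*, *H2-K1*, *Stat2*, *Tapbp*, *C4b*, *B2m*, *Irf9*, *Slc38a2* and *Slc5a3*. At an unadjusted p under 0.05, 843 genes were higher in Ech than at E4, and the Wald test of DESeq2 called 2 higher. Of the 44 genes raised in Ech against C, 38 had a higher mean at E4 than at Ech, and 9 were DEGs here, so their levels in Ech lay between those of C and E4. Both comparisons use the same Ech libraries.

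*Igtp* reached 873 to 1596 CPM at E4 (median 1396) and 39.9 to 222 CPM in Ech (median 50.5), a log2 fold change of -3.75 ± 0.55, adjusted p = 7.23e-05. *Tap1* was at 272 to 497 CPM at E4 and 26.3 to 117 CPM in Ech (-2.80 ± 0.43, adjusted p = 8.17e-05). Every E4 library was above every Ech library for both. *H2-K1* was at 2866 ± 657 CPM (SD, n = 6) at E4 and 833 ± 273 CPM (SD, n = 6) in Ech (-1.78 ± 0.30, adjusted p = 0.00096), and *Tapbp*, the chaperone tapasin that loads class I molecules, at 315 ± 70.9 and 104 ± 21.2 CPM (-1.59 ± 0.30, adjusted p = 0.00504). These 4 were called whichever library was left out. *Cd274*, which encodes the T cell inhibitory ligand PD-L1, was at 18.4 to 92.4 CPM at E4 and 0 to 15.3 CPM in Ech (-3.24 ± 0.68, adjusted p = 0.0168), against 0.8499, 3.68, 0.666, 0.693 and 1.69 CPM in C, and between Ech and C the test did not pass (adjusted p = 0.653). The amino acid transporter gene *Slc38a2* and the inositol transporter gene *Slc5a3* were lower in Ech than at E4 (-1.27 ± 0.27, adjusted p = 0.0259 and -1.25 ± 0.24, adjusted p = 0.00918) with means in Ech of 87.9 and 92.7 CPM, beside means of 76.3 and 104 CPM in C.

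The count of 20 rested on the low Ech libraries, since 4 genes were called without Ech 2, Ech 4 or Ech 5, 5 without Ech 6, 13 without E4 5 or E4 6, and 34 without Ech 1 and 3 together. Not every gene group followed the same course. The median summed CPM of the interferon-γ GTPases was 41.03 in C, 1859.7 at E1, 3525 at E4 and 235 in Ech. For interferon-stimulated genes the medians were 287, 3100.3, 3657 and 993 CPM, and for the MHC class I pathway 767, 2883, 6129 and 1624 CPM. The MHC class II genes had 4.66, 36.7, 104 and 57.6 CPM, so that the median of Ech lay above that of E1, unlike in the 3 lists just given. Complement genes had 91.8, 785, 975 and 423 CPM. Microglia and macrophage markers had 84.2, 285, 267 and 289 CPM, with overlapping ranges at E1, E4 and Ech. These medians were not tested.

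**Figure D4:**
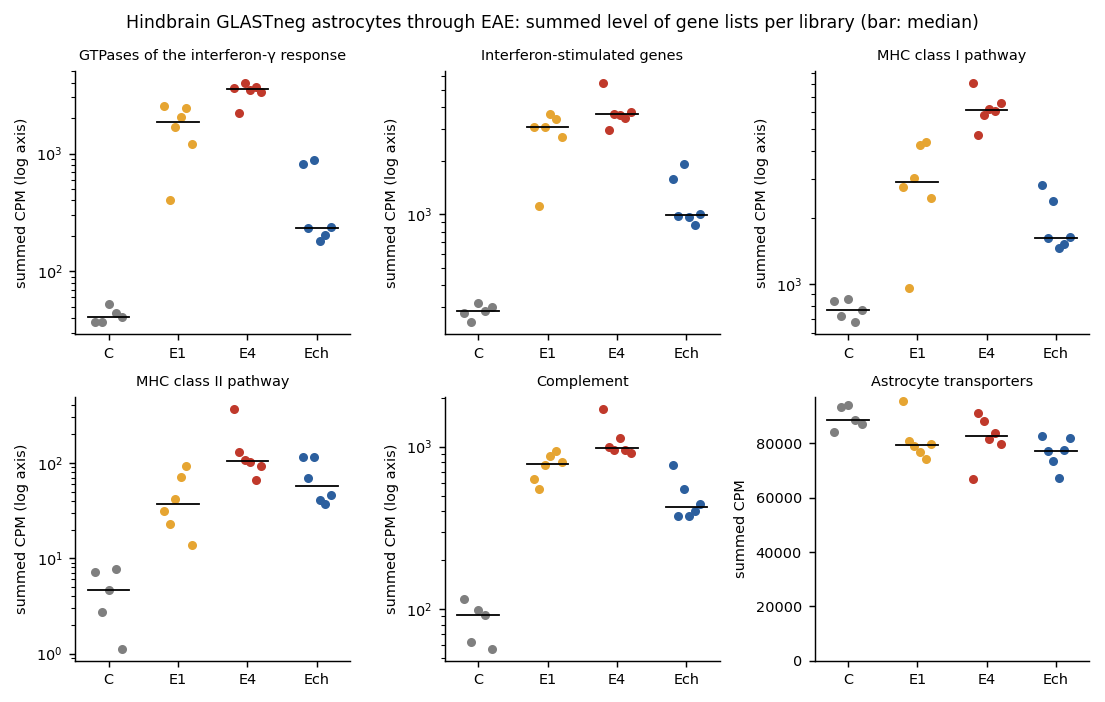
Summed CPM of 6 gene lists in each hindbrain GLASTneg library of C (5), E1, E4 and Ech (6 each), with a bar at the median; axes are logarithmic except for the astrocyte transporters. In the interferon, MHC class I and complement lists all Ech points lie above C and below E4, MHC class II overlaps between Ech and E4, and the TMM-scaled transporter sums are lower in every Ech library than in C, which with plain library totals is not so, while they overlap with E1 and E4.

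Whether the chronic response differed from that of other astrocytes was tested on the difference in response itself. Against spinal cord GLASTneg astrocytes, 1228 genes had a higher response in hindbrain (5.26% of the genes tested) and 359 a lower one (1.54%), together 1587 (6.8%). Most of these were genes that changed in the cord and not in the hindbrain: 1154 of the 1228 had fallen in cord and 282 of the 359 had risen there, and 6 of the 1587 were DEGs in hindbrain. The hindbrain and cord groups share library numbers in the labels (2 of 5 C and 5 of 6 Ech numbers), which may mark the same mice, and the cord sample was also checked by its markers. In the cord at Ech *Slc1a2* was at 133 to 409 CPM and *Atp1b2* at 228 to 609 CPM, against 2749.7 to 4486 and 5175 to 7706 CPM in cord controls. A lower level per cell and a smaller share of astrocytes in the cord Ech libraries cannot be told apart. This limit holds for all 1587 differences, including those of *Gfap* and *Lgals3bp* below.

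For the 44 genes raised in hindbrain 42 of the log2 fold changes were positive in cord, all but *Gfap* and *Lgals3bp*, against 44.4% of all genes tested, and 40 genes were called higher there, against 5.15% of all genes. The difference was called for 5 of them. *Serpina3n* (3.12 ± 0.51 in hindbrain, 6.43 ± 0.58 in cord), *C4b* (2.92 ± 0.40 and 5.18 ± 0.44) and *B2m* (1.76 ± 0.34 and 3.58 ± 0.37) rose less in hindbrain, with adjusted p of the difference of 0.000282, 0.00193 and 0.00596. *Gfap* was raised in hindbrain (1.92 ± 0.36) and had a value of -0.10 ± 0.34 in cord (difference 2.02 ± 0.49, adjusted p = 0.00294), and *Lgals3bp* was 1.77 ± 0.39 in hindbrain and -1.07 ± 0.39 in cord (difference 2.85 ± 0.55, adjusted p = 0.000109). All 5 differences were called whichever library was left out. *H2-D1* missed the threshold, with 2.42 ± 0.40 in hindbrain and 4.02 ± 0.43 in cord (difference -1.61 ± 0.53, adjusted p = 0.0502).

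Astrocyte genes gave the reverse picture. *Gja1* had a log2 fold change of -0.61 ± 0.38 in hindbrain and -5.35 ± 0.45 in cord (difference 4.74 ± 0.57, adjusted p = 1.25e-09). *Fgfr3* had 0.13 ± 0.28 and -4.90 ± 0.32 (difference 5.03 ± 0.42, adjusted p = 4.01e-15), *Aqp4* -0.20 ± 0.31 and -4.000 ± 0.34 (difference 3.80 ± 0.45, adjusted p = 6.81e-10) and *Slc1a2* -0.17 ± 0.26 and -3.74 ± 0.28 (difference 3.57 ± 0.38, adjusted p = 1.86e-11). These fell in cord, and their hindbrain intervals contained 0. *Aldh1l1*, *Atp1b2*, *Btbd17*, *Slc1a3* and *Apoe* behaved alike, with differences of 3.86 ± 0.46, 3.74 ± 0.41, 4.62 ± 0.41, 2.07 ± 0.37 and 2.58 ± 0.48, all called. *Mki67* differed in the other sense (difference -5.95 ± 1.80, adjusted p = 0.0268), having risen in cord, but without control 4 of the hindbrain it was -1.42 and not called, and the call was also lost without control 4 of the cord (range -9.80 to -1.42 without any one library).

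Against hindbrain GLASTpos astrocytes few differences were found. The difference in response was called positive for 1 gene (0.00429%) and negative for 13 (0.0557%), together 14 (0.06%), and for none of the 44 genes raised in Ech. Of those 44, 43 had a positive log2 fold change in GLASTpos cells, against 45.5% of all genes, and 18 were called higher there with 4 Ech libraries, against 1.21% of all genes. By the first number in each label, the populations share 3 of 5 C and 3 of 6 Ech library numbers. Some GLASTpos labels hold a second number, which was not counted, so the overlap may be larger. With the first number as a random block in limma, 16 differences were called, of which 2 were among the 14. Errors of the difference were broad. *Bst2* was 3.37 ± 0.53 in GLASTneg and 1.14 ± 0.53 in GLASTpos cells (difference 2.23 ± 0.73, adjusted p = 0.273, 95% interval 0.78 to 3.69), and *Iigp1* 6.02 ± 0.85 and 2.87 ± 0.78 (difference 3.15 ± 1.20, adjusted p = 0.286, interval 0.75 to 5.54). Changes of several fold between the populations were thus neither shown nor excluded by these libraries. *Serpina3n* (3.12 ± 0.51 and 3.36 ± 0.55) and *Gfap* (1.92 ± 0.36 and 1.53 ± 0.38) had close values, with intervals of the difference of -1.66 to 1.17 and -0.64 to 1.42.

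The 13 genes with a lower response in GLASTneg cells included *Gm12338*, *Hs3st3b1*, *Sytl2*, *Robo1*, *6330415B21Rik*, *Olfml2b*, *Grik2*, *Sox3*, *Abca8a*, *Lrrc4c*, *Olig2* and *Cadm1*, and the gene with a higher one was *Gm5905*. *Olig2*, a transcription factor of the oligodendrocyte lineage that some astrocytes keep, was at 246 to 315 and 171 to 288 CPM in GLASTneg cells and at 11.4 to 29.04 and 47.7 to 157 CPM in GLASTpos cells (difference -2.30 ± 0.48, adjusted p = 0.0342). In the controls it was higher in GLASTneg than in GLASTpos cells (log2 difference 3.69 ± 0.37, adjusted p = 6.42e-12). Of the 14 genes only *Cadm1*, a cell adhesion gene, was called whichever single library was left out (difference -1.82 ± 0.32, adjusted p = 0.00576). The count of 14 became 2 to 9 without GLASTneg control 1, 2 or 5, any 1 GLASTneg Ech library, GLASTpos control 1, 2, 3 or 5, or GLASTpos Ech 1 or 2, and 10 to 17 without any other library. *Gm5905* was spread within Ech, at 0 in 3 libraries and at 87.3, 183 and 40.8 CPM in the others.

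**Figure D5:**
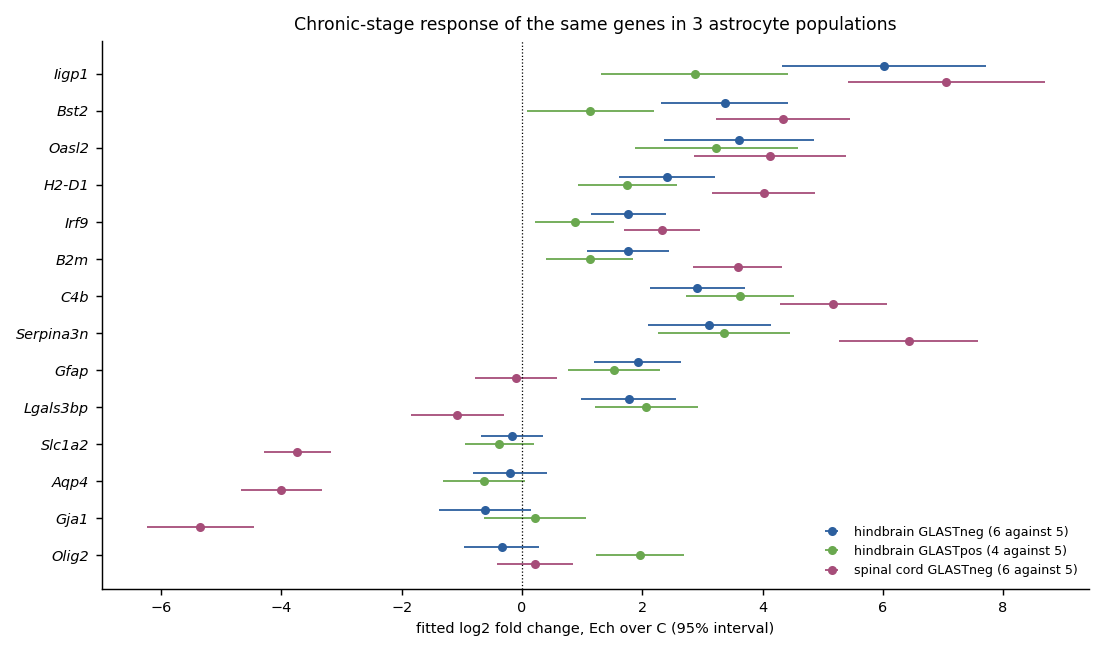
Fitted log2 fold change of Ech over C (x axis, bars are 95% intervals) for 14 genes in hindbrain GLASTneg (blue, 6 against 5 libraries), hindbrain GLASTpos (green, 4 against 5) and spinal cord GLASTneg astrocytes (purple, 6 against 5). Interferon and reactive genes lie to the right in all 3 except *Gfap* and *Lgals3bp* in cord, *Slc1a2*, *Aqp4* and *Gja1* lie far to the left in cord alone, and *Olig2* lies to the right in GLASTpos cells.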

How the data were processed

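Deposited whole-number counts per gene were used. According to the methods and labels, the authors made QuantSeq 3′ libraries, aligned reads to GRCm38 with HISAT 0.1.5 and deposited counts made with HTSeq 0.6.1p1 in union mode. The strand setting is not given in the sources used here. Reads near 3′ ends, without molecular identifiers, were counted, and near-identical genes can share or lose reads.

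Of 48526 genes, 23324 with at least 10 counts in the 66 EAE libraries were fitted with 12 group means (TMM, edgeR 4.0.16 quasi-likelihood, R 4.3.3). The standard error is the log2 fold change divided by the root of F. Differences in response are contrasts of 4 group means. Members and gene lists were chosen with earlier results of these data known. Genes named are the 12 largest rises and falls among DEGs of at least 5 CPM without overlap, the DEGs of each list or else its 2 best expressed members, astrocyte genes that the study names, and for the other comparisons the 4 largest called changes in each direction at 5 CPM; the other DEGs, and *Stat2*, *Irf1*, *H2-K1*, *Tapbp*, *Slc38a2*, *Slc5a3*, *Kcnj10*, *Vegfa* and *Cadm1*, were added after their values were seen. Some genes are not reported here. Alternatives were other scaling, filters, samples, DESeq2 1.42.0, limma 3.58.1, a replicate block, a linear sheet number and leaving out libraries. On simulated data, 51% of 100 genes changed by 1.5 and 93% of 100 changed by 3 on the log2 scale were called, with 8 of the unchanged genes, for Ech against C over 21730 genes. The changed genes were at 5 CPM or more in controls, and the simulated spread followed the fitted trend alone. Recovery for genes near the floor, or with libraries as unequal as Ech 1 and 3, was not simulated.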

Additional observations from a re-analysis of the deposited data

Results flagged for a closer look

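Values that stood far from the other libraries of their group were found in 21 of 164 combinations of a gene and a group, by Dixon's test at its 95% critical value, where chance gives about 1 in 20. Among the Ech libraries, *Lcn2* (21.6 CPM), *Serping1* (22.6 CPM) and *C4b* (511 CPM) were far above the rest in Ech 1, *Nat8f7* (6.74 CPM) in Ech 2, *Zbp1* (29.5 CPM) and *Cd300lf* (69.05 CPM) in Ech 3, and the mitochondrial gene *mt-Nd4* stood apart in Ech 5 (16832 CPM). Among the controls, *Gm12338* (243 CPM) and *Meg3* (171 CPM) stood apart in control 1, *Bst2* (19.3 CPM) and *Pdgfra* (5.52 CPM) in control 2, and *Psmb8* (5.99 CPM) and *H2-Q7* (3.33 CPM) in control 3. In control 4 these were *Mki67* (4.16 CPM), *Ifi44* (1.39 CPM), *Gbp3* (4.85 CPM) and *Cd300lf* (3.12 CPM), and in control 5 *Gm4951* (2.25 CPM), *Tap1* (27.0 CPM), *Gbp2* (3.37 CPM) and *Aldh1l1* (71.4 CPM). Several of these control values correspond to a few counts.

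Responses that differed from spinal cord GLASTneg astrocytes by the test of the difference, given as log2 fold change in hindbrain minus that in cord, were positive for the astrocyte genes *Slc1a2* (3.57), *Fgfr3* (5.03), *Gja1* (4.74), *Gpr37l1* (2.99), *Slc6a11* (4.94), *Aqp4* (3.80), *Atp1b2* (3.74), *Slc1a3* (2.07), *Aldh1l1* (3.86), *Btbd17* (4.62), *Aldoc* (3.34), *Apoe* (2.58) and *Gria1* (3.32). They were also positive for *Gfap* (2.02), *Lgals3bp* (2.85), *Mt2* (1.83), *Msmo1* (1.52), *mt-Nd4* (1.03) and *Nfkbia* (1.34). Of these, *Nfkbia* lost its call in 17 of 22 fits that left out a library, *mt-Nd4* in 5 and *Mt2* in 1 (without cord control 2). Among sparsely counted genes the difference was positive for *Nat8f7* (11.99), *Pdgfrl* (8.72), *Sdsl* (8.43) and *Map3k19* (8.36), where *Nat8f7* was not called without hindbrain Ech 2 or cord control 4 and ranged from 5.10 to 14.29. It was negative for *Serpina3n* (-3.31), *C4b* (-2.26), *B2m* (-1.82), *Mki67* (-5.95), *Sox3* (-3.68), *Slc35e3* (-8.82), *Piezo2* (-7.94), *Gm12338* (-8.91) and *Rpl30-ps1* (-7.77). Among these, *Mki67* ranged from -9.80 to -1.42 and was not called without control 4 of either region, *Gm12338* ranged from -9.70 to -4.40 and was not called without hindbrain control 1, *Piezo2* was not called without hindbrain control 4, and *Rpl30-ps1* was not called in 5 of 22 fits.

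Against hindbrain GLASTpos astrocytes the log2 difference was positive for *Gm5905* (13.25) and negative for *Robo1* (-6.93), *Gm12338* (-12.98), *6330415B21Rik* (-6.61), *Olig2* (-2.30) and *Sox3* (-6.10). None of these 6 held its call in every fit that left out a library, and *Gm12338* lost it without control 1.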

How the results depend on the processing

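The number of DEGs between Ech and C, 45, was 97 without a filter on low counts, 157 in a fit of the 23 hindbrain GLASTneg libraries alone, 173 in one of the 11 libraries compared, 92 with DESeq2, 11 without Ech 1 and 3 together (chosen after seeing the data) and 16 to 55 without any one library. Genes lower in Ech made up 7 of the 157, 22 of the 173 and 4 of the 92. For Ech against E4, 20 became 53 without the filter, 121 with the 23 libraries, 33 with DESeq2, 34 without Ech 1 and 3 and 4 to 27 without any one library. Differences to spinal cord, 1587, ranged from 1307 to 1668 without any one library, and differences to GLASTpos astrocytes, 14, became 50 without the filter, 56 with DESeq2, 5 without Ech 1 and 3 and 2 to 17 without any one library. The cause of these moves was not tested. Deviations of C and Ech libraries with equal replicate numbers correlated at -0.0903 to 0.136, and those with unequal numbers at -0.133 to 0.108. As C and Ech are different mice, this cannot show whether libraries of different populations are paired. With the replicate number as a block the 4 counts were 61, 26, 1493 and 8. Of named gene values under the alternatives, 2669 kept direction and side of the threshold, 425 lost the call, 15 gained it and 19 changed sign. The sign changed at values near 0 or in sparse genes: *Sdsl* was -0.028 with the block and *Aldh1l1* 0.012 with sheet number and 0.018 without Ech 1 and 3. Without any one library, *Aldh1l1* ranged from -0.11 to 0.074, *Mog* from -0.033 to 0.51, *Aldoc* from -0.13 to 0.042, *Apoe* from -0.0095 to 0.052, *Map3k19* from -0.35 to 0.0051, *6330415B21Rik* from -0.41 to 0.20 and *Nat8f7* from -0.78 to 4.81. At these depths, genes under about 1 to 2 CPM were at or below 3 counts, and no change in them was detectable.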
